A study of Homo sapiens with 6 samples.

Results

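The cytosolic ribosomal protein genes were taken as every gene with a symbol that begins RPL or RPS, followed by a number and, at most, the letter A, X or L, together with RPLP0, RPLP1, RPLP2 and RPSA. This gave 81 of the 20476 genes in the deposited table, of which 49 encode proteins of the large subunit and 32 proteins of the small subunit, assigned by the symbol. Of these, 78 had enough counts to be tested, among 12576 genes tested in all. The 3 that did not were RPL10L and RPL39L, which were at 0 counts in all 6 libraries, and RPL3L, which had 4 counts in total, 3 of them in shNC replicate 3 and 1 in shECM1 replicate 1. A symbol rule leaves out ribosomal proteins with other names, and these were followed as a separate list.

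Transcripts were counted in SW620, a human colorectal cancer cell line derived from a metastasis. Stable knockdown of ECM1, a secreted matrix protein, by a short hairpin RNA (shECM1, 3 libraries) was set against a negative control hairpin (shNC, 3 libraries). Column letters were matched to groups by name, so every direction would reverse if the letters meant the opposite, and the labels name neither clones nor separate cultures, so the spread behind each p-value may be technical. The labels describe both extracted total RNA and droplet single-cell libraries, without saying which of them a column of counts comes from.

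Library totals ran from 9881720 to 16813951 counts, and 14738 to 15107 genes were detected. Levels are given as CPM, the count as a share of the library total on a common scale, adjusted by the trimmed mean method (TMM). ECM1 was at 38.8, 19 and 52.3 CPM in shNC replicates 1 to 3 and 14.8, 13.6 and 8.41 CPM in shECM1 replicates 1 to 3 (log2 fold change -1.58, edgeR adjusted p = 0.0973). The library labelled shNC replicate 2 was the control nearest to the knockdown libraries in ECM1, and over all genes its counts differed least from those of shECM1 replicate 1 (chi-square per gene 5.15, against 15.64 and 32.55 from the other 2 controls). Results are therefore given with and without it. This control was singled out for its nearness to the knockdown libraries, so leaving it out favours larger differences and more calls. Values without it are not separate evidence for a difference. Of 10 colorectal epithelial markers 9 were tested, with a summed level of 10645 to 15337 CPM in shNC and 10320 to 11665 CPM in shECM1. KRT8, KRT18, CDH1, EPCAM and VIL1 were abundant, while KRT20 (mean 1.27 CPM) and LGALS4 (0.826 CPM) were low and CDX1 was at 0 in 5 of 6 libraries. The 9 immune markers summed to 74.8 to 192.4 CPM in shNC and 48.9 to 77.7 CPM in shECM1, mostly CD68 (119.4, 68.9 and 175.2 against 71.9, 62.4 and 41.4 CPM) and LYZ, with PTPRC, CD3E and MS4A1 at 0 in every library. The 9 fibroblast markers summed to 23.6 to 35.5 against 16.7 to 20.9 CPM, mostly COL1A1 (18.1, 13.1 and 21.5 against 9.73, 7.21 and 8.19 CPM) and LUM, with PDGFRA, COL3A1 and FAP at 0. The 7 endothelial markers summed to 9.73 to 12.2 against 8.04 to 9.22 CPM, mostly VWF and PECAM1, with KDR and EMCN at 0. The part of these genes in the values below was not tested.

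Ribosomal proteins coat and stabilise the RNA core of the ribosome, and each subunit is assembled from a set of them made in roughly equal amounts. Because a growing cell spends a large share of its messages on these proteins, their genes are among the most highly expressed, and the MYC and mTOR pathways are known to govern the production and translation of those messages. Their messages characteristically begin at a C followed by a run of pyrimidines, the 5′ terminal pyrimidine tract through which translation responds to mTOR and LARP1.

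The start sites are shown because this shared start is the main feature of the members that the symbol rule did not use. RefSeq start sites (build GRCh38.p14) were matched by symbol for 64 of the 81 genes. Each line below gives 40 bases before and 20 bases from the listed start site, 5′ to 3′ on the gene's own strand, with capitals marking the longest pyrimidine run that covers or touches the 5 bases on either side of the start. RPS3, RPLP0 and RPL41 are highly expressed, RPL7A and RPL28 had the lowest fold changes, RPL26 and RPL35A had fold changes among the highest, RPS10 had the lowest level, and RPS29 and RPS27L have no long run.
RPS3 (chr11:75399478-75399537, plus strand): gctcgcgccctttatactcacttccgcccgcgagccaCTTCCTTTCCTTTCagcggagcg
RPLP0 (chr12:120201092-120201151, minus strand): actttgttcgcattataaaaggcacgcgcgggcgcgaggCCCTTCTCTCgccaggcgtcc
RPL41 (chr12:56116593-56116652, plus strand): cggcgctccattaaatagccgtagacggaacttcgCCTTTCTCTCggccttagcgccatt
RPL7A (chr9:133348178-133348237, plus strand): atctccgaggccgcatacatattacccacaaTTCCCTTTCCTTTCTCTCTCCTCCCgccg
RPL28 (chr19:55385892-55385951, plus strand): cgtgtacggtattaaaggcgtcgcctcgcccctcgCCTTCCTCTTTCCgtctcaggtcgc
RPL26 (chr17:8383174-8383233, minus strand): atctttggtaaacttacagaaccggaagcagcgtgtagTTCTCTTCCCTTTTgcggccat
RPL35A (chr3:197950150-197950209, plus strand): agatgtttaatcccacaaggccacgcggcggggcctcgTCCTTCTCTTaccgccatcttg
RPS10 (chr6:34426050-34426109, minus strand): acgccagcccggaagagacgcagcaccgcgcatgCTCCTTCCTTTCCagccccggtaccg
RPS29 (chr14:49598691-49598750, minus strand): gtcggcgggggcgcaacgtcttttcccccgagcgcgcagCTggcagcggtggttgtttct
RPS27L (chr15:63157458-63157517, minus strand): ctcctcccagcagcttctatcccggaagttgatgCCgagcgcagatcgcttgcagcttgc

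At any listed start, a C followed by at least 4 pyrimidines on the gene's strand was found for 46 of the 64 members (71.9%) and for 5.1% of 27305 genes with an entry. A run of at least 8 pyrimidines covering or touching the 5 bases around the start was found for 51 members (79.7%), against 14.1% of all genes. From 250 bases before to 50 after the start, on both strands, CCGGAAG, an ETS-type motif, was present for 23 members (35.9%) and 12.2% of genes, AAGATGGC, of the YY1 type, for 6 members (9.4%) and 3.5% of genes, and TATAAA for 6 members (9.4%) and 14.0% of genes. These are letter matches and not sites of measured binding.

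The members held a larger share of all counts in the shECM1 libraries. Their share was 9.64%, 11.1% and 10.3% in shNC replicates 1 to 3 and 11.5%, 12.5% and 11.6% in shECM1 replicates 1 to 3. Every shECM1 library lay above every shNC library, although shECM1 replicate 1 and shNC replicate 2 were close. The mean was 10.4% ± 0.75 (SD, n = 3) in shNC and 11.9% ± 0.585 (SD, n = 3) in shECM1, a difference of 1.51 percentage points, which was 1.9 points without shNC replicate 2. The 95% Wilson interval of each share reached at most 0.0199 points to either side, and it covers counting error only. The share of counts in mitochondrially encoded genes was 3.1% ± 0.161 in shNC and 2.94% ± 0.34 in shECM1 (SD, n = 3), with overlapping groups.

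**Figure D1:**
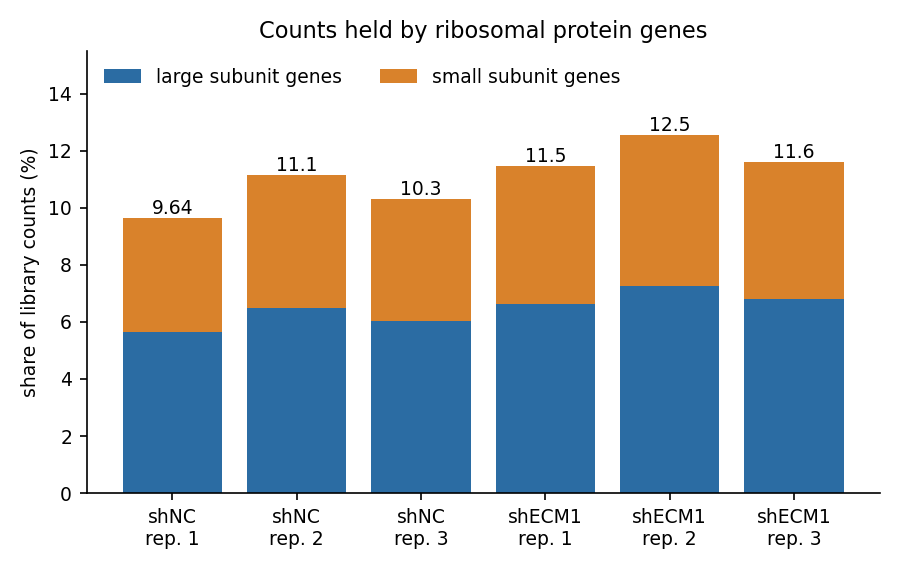
Share of each library's counts (%, y axis) held by large subunit genes (blue) and small subunit genes (orange), stacked, for 3 shNC and 3 shECM1 libraries (x axis), with the total printed above each bar. The shECM1 bars reach 11.5% to 12.5% and the shNC bars 9.64% to 11.1%.

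Both subunits had the same tendency. Large subunit genes held 6.05% ± 0.432 of counts in shNC and 6.9% ± 0.322 in shECM1 (SD, n = 3), and small subunit genes held 4.31% ± 0.318 and 4.97% ± 0.271 (SD, n = 3). The ratio of large to small subunit counts was 1.4026, 1.3972 and 1.4082 in shNC and 1.3740, 1.3744 and 1.4196 in shECM1. The knockdown libraries lay on both sides of the controls, with replicate 3 the highest of all 6 libraries and replicates 1 and 2 the lowest. The means, 1.4027 ± 0.0055 and 1.3893 ± 0.0262 (SD, n = 3), differed by less than the spread among the shECM1 libraries. In a measurement of RNA pooled from many cells, more message per cell and a larger share of cells with high levels cannot be told apart.

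Gene by gene, the differences were small and nearly all in the same direction. Of the 78 tested members, 77 had a positive log2 fold change (shECM1 minus shNC), which is 98.7% against 51.4% of all genes tested, and the median was 0.20 (1.15-fold) against 0.01 over all genes. The median was 0.19 for the 46 large and 0.20 for the 32 small subunit genes tested. Members are not independent replicates, and these counts describe the libraries and are not a test.

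With edgeR's quasi-likelihood test and Benjamini-Hochberg adjustment over all genes, 0 of 78 members were called at an adjusted p under 0.05, as were 0% of genes overall. The smallest adjusted p of a member was 0.125. DESeq2 and limma-voom also called 0 members, with smallest adjusted p of 0.0685 and 0.145, while DESeq2 called 0.851% of genes higher and 4.65% lower. At an unadjusted p under 0.05 edgeR found 21 members higher (26.9%) and 0 lower, against 8.31% of genes higher and 14.2% lower. In 33 members (42.3%) every shECM1 library lay above every shNC library, against 11.2% of genes, and in 0 members every shECM1 library lay below, against 13.2% of genes.

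Without the library labelled shNC replicate 2, edgeR called 20 members higher and 0 lower, against 9.73% of genes higher and 14.1% lower, and the median was 0.25 (1.19-fold). DESeq2 without it called 23 members higher and 0 lower, against 8.55% of genes higher and 12.9% lower, and all 20 of edgeR's were among them. The 20 comprised 10 large and 10 small subunit genes, with log2 fold changes from 0.30 (RPL35) to 1.20 (RPS10). Removal of any other single library left 0 members called. Without shNC replicate 1 there were 0 members at an unadjusted p under 0.05 and without shECM1 replicate 2 there was 1, with a median of 0.14 in both cases. Without shNC replicate 3 there were 17 (median 0.22) and without shECM1 replicate 1 there were 14 (0.23). Without shECM1 replicate 3 there were 31 (0.24), beside 21 with all libraries. With all libraries 8.31% of genes were higher at that threshold. The share of all genes is not given for the fits that leave out a library. The changes in these counts are therefore not shown to be particular to the members.

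**Figure D2:**
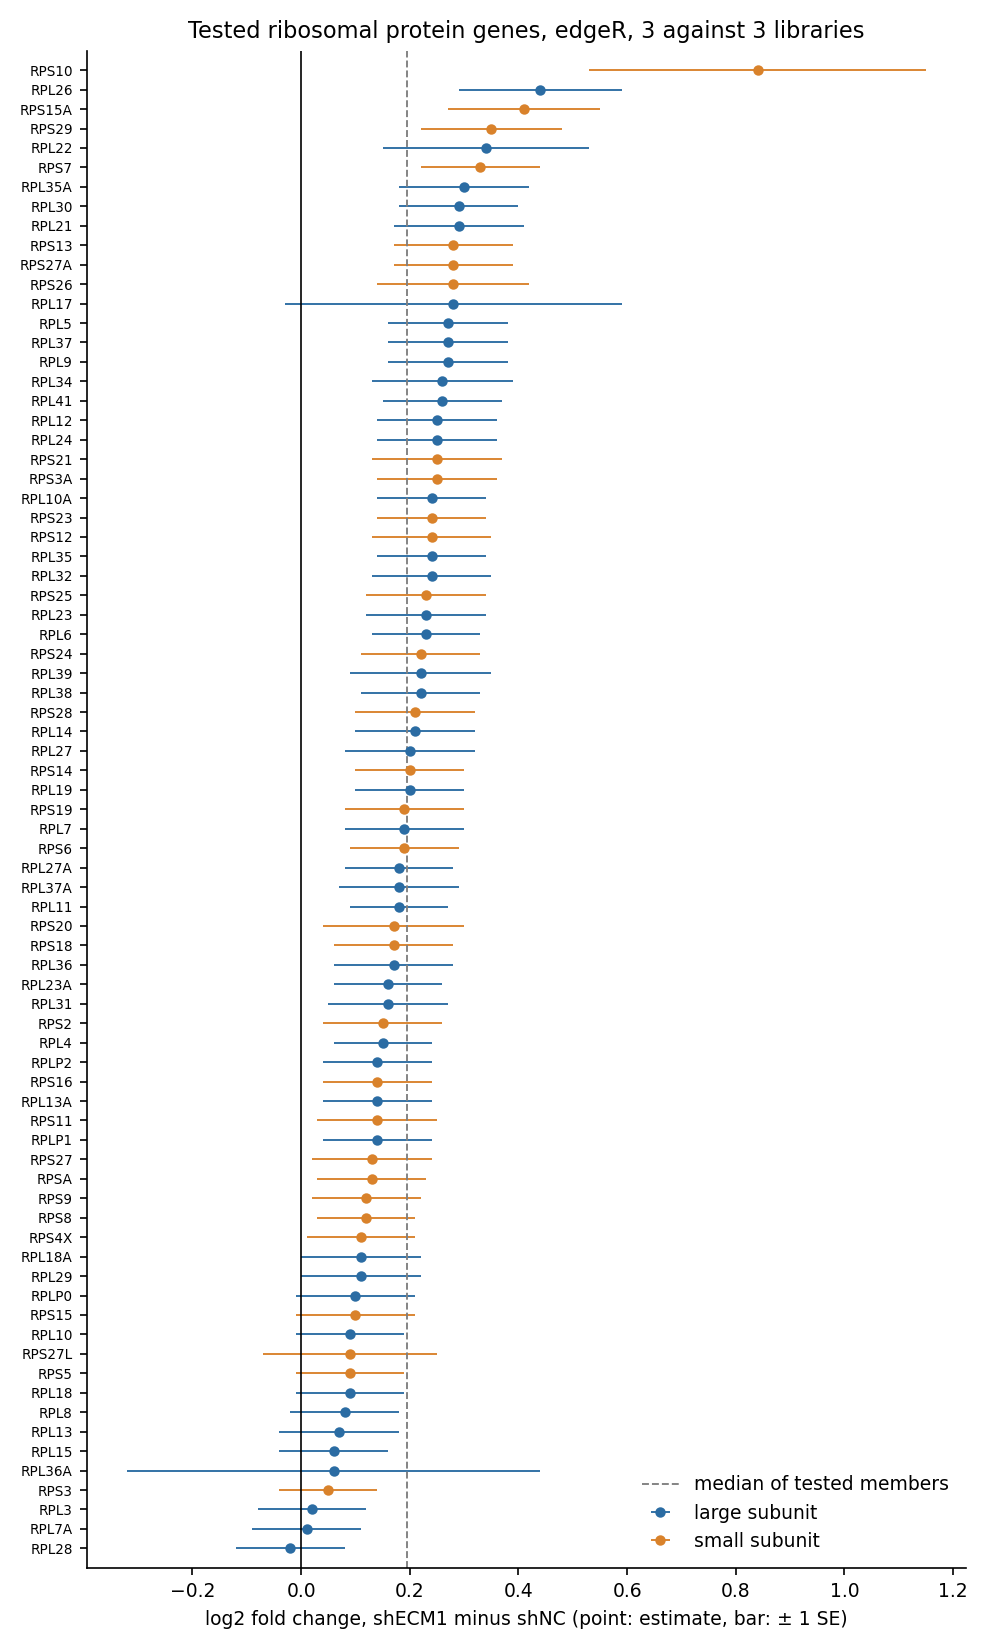
Log2 fold change of shECM1 minus shNC (x axis) for 77 of the 78 tested members, sorted (y axis), with bars of 1 standard error from edgeR, in blue for the large and orange for the small subunit. RPL28 at -0.02 is the lowest, RPS10 at 0.84 the highest, and the dashed line marks the median of the 78.

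The tendency came mainly from 1 library on each side. Each member's log2 CPM was compared with its own mean over the 6 libraries. The median deviation was -0.23, -0.02 and -0.04 in shNC replicates 1 to 3 and 0.04, 0.21 and 0.04 in shECM1 replicates 1 to 3, whereas the median over all tested genes was at most 0.01 from 0 in every library. In shNC replicate 1, 78 of 78 members were below their mean, and it was the lowest library for 69. In shECM1 replicate 2, 77 were above their mean, and it was the highest library for 64. The other 4 libraries lay within 0.04 of 0 in the median, with those of shECM1 above 0 and those of shNC below.

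**Figure D3:**
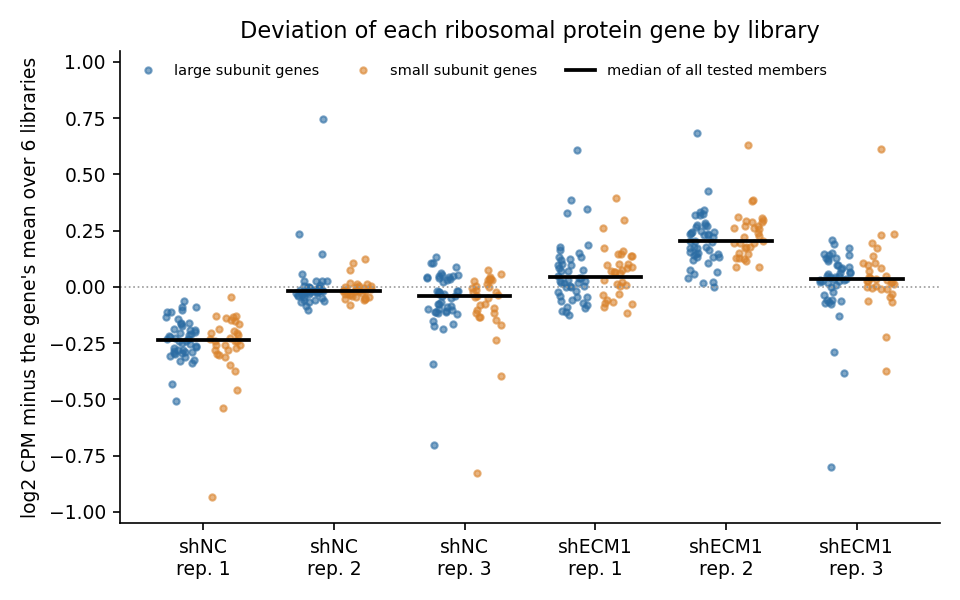
Deviation of each tested member's log2 CPM from its mean over 6 libraries (y axis), by library (x axis), with a point per gene and a black line at the median of all tested members. The members sit lowest in shNC replicate 1 (median -0.23) and highest in shECM1 replicate 2 (0.21), with blue and orange points moving alike.

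Among large subunit proteins, the stalk that recruits elongation factors showed small differences. RPLP0, which anchors the stalk, was at 3223, 3459 and 3669 CPM in shNC and 3267, 3756 and 4067 CPM in shECM1. The groups overlapped, and its log2 fold change was 0.10 ± 0.11 (SE; adjusted p = 0.604). RPLP1 and RPLP2, the acidic proteins that pair on RPLP0, each had a log2 fold change of 0.14, with overlapping groups. RPL12, at the base of the stalk, was at 1013, 1276 and 1247 CPM in shNC and 1305, 1423 and 1479 CPM in shECM1. Its groups did not overlap, with shNC replicate 1 well below the rest, and its log2 fold change was 0.25 ± 0.11 (SE; edgeR adjusted p = 0.216; 0.0485 without shNC replicate 2).

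RPL5 and RPL11 bind the 5S ribosomal RNA and, when free of ribosomes, the p53 ligase MDM2. RPL5 was at 1517, 1759 and 1570 CPM in shNC and 1966, 2105 and 1771 CPM in shECM1, and RPL11 was at 1311, 1436 and 1477 CPM and 1580, 1659 and 1551 CPM. In both genes every shECM1 library was above every shNC library, though RPL5 in shECM1 replicate 3 was only just above shNC replicate 2. The log2 fold changes were 0.27 ± 0.11 and 0.18 ± 0.09 (SE), with edgeR adjusted p of 0.172 and 0.275, and without shNC replicate 2 that of RPL5 was 0.0285 and that of RPL11 was 0.135. RPL10A, the protein of the mobile L1 stalk beside the tRNA exit site, had a log2 fold change of 0.24 ± 0.10 (SE; edgeR adjusted p = 0.197; 0.0402 without shNC replicate 2).

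Of 4 proteins on the side of the peptidyl transferase centre, where peptide bonds form, RPL3 had one of the lowest fold changes. It was at 3458, 3552 and 3950 CPM in shNC and 3531, 3728 and 3846 CPM in shECM1, with the shECM1 libraries inside the range of the controls (log2 fold change 0.02 ± 0.10 SE, edgeR adjusted p = 0.921). RPL8, also near that centre, and RPL10, which is needed for the last steps of large subunit maturation, had values of 0.08 and 0.09. RPL4, which lines the tunnel through which the new chain leaves, was at 2855, 2990 and 3093 CPM against 3096, 3397 and 3392 CPM, so its groups just failed to overlap (0.15 ± 0.09 SE, edgeR adjusted p = 0.372). The median of these 4 was 0.09 and 0 had an unadjusted p under 0.05, against 8.31% of genes higher at that threshold. The 8 proteins around the tunnel exit, including RPL19, RPL31 and RPL35, had a median of 0.23 and 2 such genes. These 2 include RPL26, a gene of uncertain level described below. The difference between the groups of 4 and 8 was not tested. With the GC offset described below, RPL3 was at 0.14, RPL4 at 0.09, RPL8 at 0.32 and RPL10 at 0.22, beside a median of 0.23 over all members, so the low values of RPL8 and RPL10 depended on the GC treatment.

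The lowest fold changes belonged to RPL28, RPL7A and RPL3 of the large subunit, RPS3 of the small subunit and RPL15, also of the large subunit. RPL28 (chromosome 19, 55385345 to 55403250) was at 624.4, 654.2 and 728.9 CPM in shNC and 647.6, 664.1 and 674.8 CPM in shECM1. All 3 knockdown libraries lay within the range of the controls (log2 fold change -0.02 ± 0.10 SE, edgeR adjusted p = 0.937), and the sign turned to 0.01 with library size as the only scaling and to 0.19 with the GC offset described below. RPL7A (chromosome 9, 133348214 to 133351426), at 1484, 1489 and 1668 CPM against 1463, 1611 and 1587 CPM, also overlapped (0.01 ± 0.10 SE). RPS3, the small subunit protein at the entry of the messenger RNA channel, was at 4053, 3954 and 4307 CPM against 4072, 4435 and 4249 CPM (0.05 ± 0.09 SE).

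The member with the smallest p was RPS7 (chromosome 2, 3575205 to 3580920), a small subunit body protein. It was at 1001, 1208 and 1097 CPM in shNC and 1321, 1519 and 1327 CPM in shECM1. Every shECM1 library was above every shNC library, and the log2 fold change was 0.33 ± 0.11 (SE; edgeR adjusted p = 0.125; 0.0124 without shNC replicate 2). RPS29, a short zinc-binding protein of the head of the small subunit, was at 665.5, 851.6 and 784.6 CPM against 947.9, 1126 and 861.4 CPM. Its highest control and lowest knockdown library almost touched (0.35 ± 0.13 SE, edgeR adjusted p = 0.15; 0.0222 without shNC replicate 2). RPS27A, made as a fusion to ubiquitin, was at 1119, 1375 and 1270 CPM against 1448, 1652 and 1461 CPM, with no overlap (0.28 ± 0.11 SE, edgeR adjusted p = 0.172; 0.0253 without shNC replicate 2).

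RPS6, the substrate of S6 kinase, was at 2328, 2488 and 2452 CPM in shNC and 2703, 2957 and 2604 CPM in shECM1. The groups did not overlap, and its log2 fold change was 0.19 ± 0.10 (SE; edgeR adjusted p = 0.27; 0.124 without shNC replicate 2). RPSA, of the platform and also known as the laminin receptor precursor, had 1387, 1501 and 1526 CPM against 1506, 1674 and 1654 CPM, with an overlap at shECM1 replicate 1 (0.13 ± 0.10 SE). Of the small subunit genes, 14 encode head proteins and 17 body or platform proteins, and the median was 0.20 in each. In each, 4 genes were higher at an unadjusted p under 0.05, beside 26.9% of all tested members and 8.31% of genes. RPS27L, a paralogue of RPS27 and a p53 target, was at 45.6, 50 and 50.8 CPM against 55.8, 61.9 and 38.5 CPM, with shECM1 replicate 3 the lowest library (0.09 ± 0.16 SE). The other 3 paralogues, RPL3L of muscle and RPL10L and RPL39L of testis, are the untested genes named at the start.

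Inherited loss of 1 copy of certain ribosomal protein genes causes Diamond-Blackfan anaemia, and 19 such members were followed. All 19 had positive log2 fold changes (against 98.7% of tested members and 51.4% of genes), from 0.06 to 0.84, with a median of 0.24. At an unadjusted p under 0.05 there were 9 (47.4%, against 26.9% of all tested members and 8.31% of genes), and 10 were called without shNC replicate 2 (52.6%, against 25.6% of members and 9.73% of genes), among them RPS26, which binds near the messenger RNA exit, and RPL35A, of the large subunit. RPL35A was at 1256, 1539 and 1371 CPM in shNC and 1722, 1949 and 1474 CPM in shECM1, so shECM1 replicate 3 fell below shNC replicate 2 (0.30 ± 0.12 SE, edgeR adjusted p = 0.182; 0.031 without that control).

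Levels were compared between genes per kilobase of coding sequence, for the 77 members other than the paralogues. RPL41, which encodes a peptide of very few residues from 75 coding bases, was the highest at 34782 CPM per kb. Only coding bases enter the length, so a level per kb of so short a coding sequence is not closely comparable with the others. For 70 members the level ran from 498.8 (RPS26) to that value with a median of 2969 CPM per kb. The remaining 7 lay below them all, from 5.44 to 488.3 CPM per kb with a median of 25.9. RPS10 was the lowest of these and RPS15A the highest, and RPL36A, RPL17, RPL26 and RPL22 lay between.

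These 7 genes are exactly the members whose coding sequence is overlapped on the same strand by another gene of the table, over 54.6% to 100% of coding bases by GENCODE release 29, and the other 70 have no such overlap. The overlapping genes are read-through genes such as RPS10-NUDT3, RPL17-C18orf32 and RPL36A-HNRNPH2 and genes with an identifier alone. Reads that fall on 2 genes may be dropped by a counter. The overlapping genes themselves held few counts, from 0 to 424 over all 6 libraries, against 219 (RPS10) to 15417 (RPS15A) for the members. RPL36A-HNRNPH2, at 424 counts, held more than RPL36A, at 343. The other overlapping genes held fewer than their members. The level of these 7 is therefore uncertain, whether reads were dropped was not tested here, and the annotation release used for counting is not given in the sources used here.

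**Figure D4:**
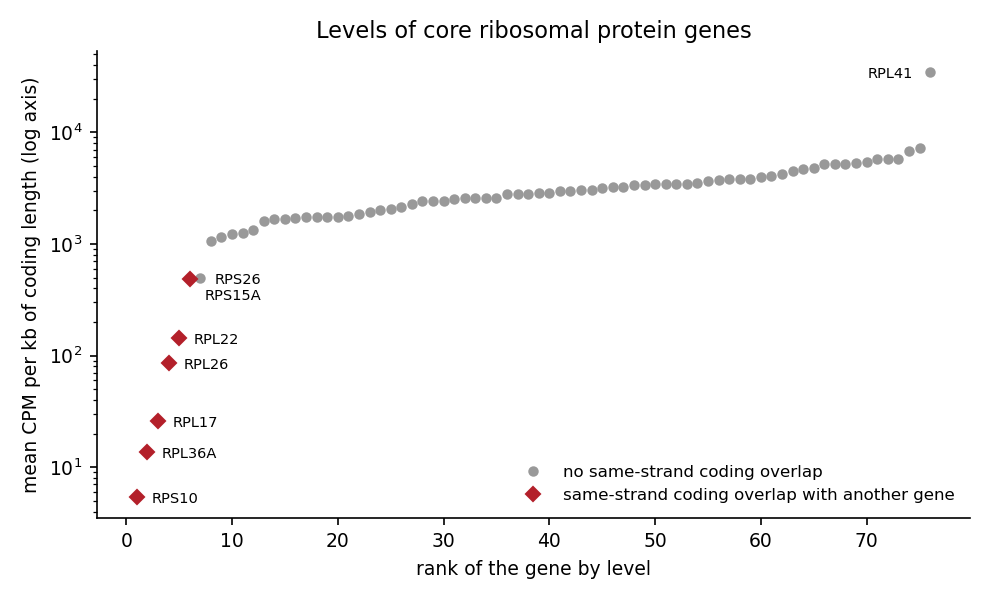
Mean level over 6 libraries in CPM per kb of coding length (y axis, log axis) for 76 members without the paralogues, ranked from lowest (x axis). Red diamonds mark 6 genes with same-strand coding overlap, all at ranks below the 70 grey points.

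The low counts bear on the extremes of fold change. RPS10, a protein of the small subunit head (chromosome 6, 34417454 to 34426125), had only 20, 38 and 19 counts in shNC and 34, 67 and 41 in shECM1, which is 1.69, 2.73 and 1.36 CPM against 3.38, 3.99 and 3 CPM. The groups did not overlap, and the log2 fold change was 0.84 ± 0.31 (SE; edgeR adjusted p = 0.151; 0.0135 without shNC replicate 2). RPL26, near the tunnel exit, was at 25.7, 36.1 and 32.9 CPM against 46, 45.7 and 37.2 CPM (0.44 ± 0.15 SE, edgeR adjusted p = 0.134).

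RPS15A, of the body, was at 136.0, 186.7 and 168.8 CPM against 224.1, 243.7 and 183.2 CPM, with shECM1 replicate 3 just below shNC replicate 2 (0.41 ± 0.14 SE, edgeR adjusted p = 0.138). RPS10, RPL26 and RPS15A are among the 5 highest fold changes of the members. Over the 7 overlapped genes the median was 0.41, with 4 at an unadjusted p under 0.05. Over the other 71 tested members it was 0.19, with 17 higher at an unadjusted p under 0.05 and 30 higher without overlap between groups. Of all genes tested, 8.31% were higher at that threshold and 11.2% were higher without overlap. The tendency is thus not confined to the overlapped genes.

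Among the 70 members without overlap or paralogue status, the fold change varied with base composition. Across these genes, which share libraries and are not independent replicates, log2 fold change and GC content of the coding sequence had a Pearson r of -0.57, and r with log2 coding length was -0.42. The 24 genes of 42.5% to 48.9% GC had a median of 0.24 and 11 at an unadjusted p under 0.05. The 23 genes of 49.0% to 54.2% GC had 0.18 and 5, and the 23 genes of 54.3% to 63.0% GC had 0.14 and 1. Of all genes tested, 8.31% were higher at that threshold, so the group of highest GC content showed no excess in this count.

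Within libraries, r between a member's deviation and its GC content was 0.37, -0.26 and 0.61 in shNC and -0.60, -0.61 and 0.40 in shECM1, so shECM1 replicate 3 had the sign of shNC replicates 1 and 3, and shNC replicate 2 that of the other 2 knockdown libraries. When a trend on transcript GC content was removed from each library by an offset, r became 0.39, and the medians of the 3 GC groups were 0.21, 0.19 and 0.29. The order of members within the range is thus bound to the GC treatment. The share of a member's 100-base windows found in other genes had an r of 0.06 with fold change over 69 genes. With the GC offset and without shNC replicate 2, 34 members were called higher and 0 lower, against 13.9% of genes higher and 12.8% lower.

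**Figure D5:**
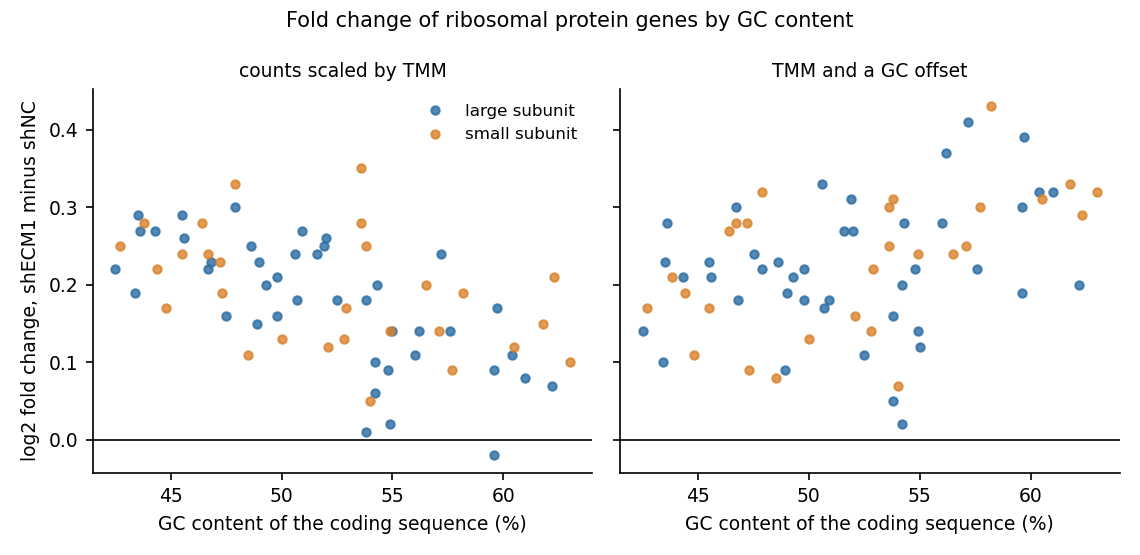
Log2 fold change of shECM1 minus shNC (y axis) against GC content of the coding sequence (%, x axis) for 70 members without overlap, a point per gene, with TMM scaling (left) and with a GC offset added (right). The downward slope at left (r = -0.57) is an upward slope at right (r = 0.39), and most points stay above 0 in both panels.

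A C and at least 4 pyrimidines at the listed start did not separate members by fold change. Of 63 tested members with a start entry, 46 had this start and a median of 0.19, with a range of -0.02 to 0.84. The other 17 had a median of 0.21. Some of the 17 have a long pyrimidine run beside the listed start, such as RPL4 (12 bases), RPL9 (10) and RPS7 (11). The 17 are thus not free of the feature, and the split cannot show whether a pyrimidine run goes with fold change. The 694 tested genes with such a start that are no members had a median of 0.02, as did the 9391 without it. Translation factors and other messages known for such starts had a median of 0.06 over 14 genes, with 11 positive (78.6%, against 51.4% of genes). Of the 8 with an entry, 7 had the start and a median of 0.03. EEF1A1, the factor that brings tRNA to the ribosome, was at 18784, 19309 and 19984 CPM against 19492, 20938 and 18937 CPM (0.03 ± 0.09 SE), and EEF2, the translocation factor, had -0.04 ± 0.10 (SE), a sign that turned to 0.15 with the GC offset.

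Ribosomal proteins outside the symbol rule had positive values in 7 of 7 genes, against 51.4% of genes, with a median of 0.29. At an unadjusted p under 0.05, 4 were higher, against 8.31% of genes. FAU, the precursor of a small subunit protein, was at 409.5, 503.9 and 473.1 CPM against 535.0, 606.6 and 552.9 CPM, with no overlap (0.29 ± 0.11 SE, edgeR adjusted p = 0.157; 0.0238 without shNC replicate 2). RACK1, a scaffold on the head of the small subunit, had 0.02 ± 0.11 (SE), with overlapping groups. RPL22L1, the paralogue of RPL22, was at 17.1, 24.3 and 16.1 CPM against 30.3, 30.8 and 24.1 CPM (0.57 ± 0.18 SE, edgeR adjusted p = 0.12; 0.00384 without shNC replicate 2).

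The direction of the members was shared by the proteins of the mitochondrial ribosome, a separate particle with its own genes. These genes held 0.432%, 0.489% and 0.417% of counts in shNC replicates 1 to 3 and 0.51%, 0.536% and 0.557% in shECM1 replicates 1 to 3. Replicate 3 was thus the lowest control and the highest knockdown library, unlike in the members. DESeq2 with all libraries called 7 of these genes higher, against 0 members and 0.851% of genes. Of 76 tested, 73 were positive, with a median of 0.22, 30 higher at an unadjusted p under 0.05 (39.5%, against 8.31% of genes) and 28 called higher without shNC replicate 2 (36.8%, against 9.73% of genes). Ribosome assembly factors were positive in 17 of 17, against 51.4% of genes, with a median of 0.34 and 11 higher at an unadjusted p under 0.05, against 8.31% of genes. NOB1, the nuclease that finishes small subunit RNA, had 0.23 ± 0.13 with overlapping groups (SE; edgeR adjusted p = 0.31; 0.0405 without shNC replicate 2). TSR1, a late small subunit factor, had 0.36 ± 0.14 (SE; edgeR adjusted p = 0.161; 0.00377 without shNC replicate 2). Factors that rescue stalled ribosomes had a median of -0.14 over 10 genes, with 4 positive. The p53 pathway genes of ribosomal stress had a median of -0.22 over 7, with 3 positive, against 51.4% of genes. At an unadjusted p under 0.05, 4 of the 10 were lower and 1 higher, and 2 of the 7 were lower and 1 higher. Of all genes tested, 14.2% were lower and 8.31% higher at that threshold.

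Regulators of ribosomal protein synthesis had a median of 0.08 over 14 genes, with 11 positive (78.6%, against 51.4% of genes). MYC, a transcription factor that drives ribosome production, was at 276.6, 498.2 and 223.0 CPM in shNC and 456.0, 487.5 and 671.2 CPM in shECM1. The library labelled shNC replicate 2 stood with the knockdown libraries, and shNC replicate 3, the lowest in MYC, was not the lowest in the members (0.69 ± 0.25 SE, edgeR adjusted p = 0.151; 0.000757 without shNC replicate 2). LARP1, the binder of pyrimidine starts, had 0.16 ± 0.14 (SE) with overlapping groups. Whether MYC has a part in the members' levels was not tested.

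The genes with a pattern most like the members were found by Pearson's r, over the 6 libraries, between each gene's log2 CPM and the mean of the tested members. Of 8876 other genes with a mean of at least 10 CPM, 162 (1.83%) had r over 0.9. The first 5 were NDUFB1, a subunit of mitochondrial complex I (0.990), SF3B6, a spliceosome protein (0.986), TAF2, of the general transcription factor TFIID (0.984), CCNG1, a cyclin (0.984), and CASP4, an inflammatory caspase (0.983). With 6 libraries such a ranking is a description of shape alone.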

How the data were processed

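The authors deposited raw whole-number counts per gene and library. The tools named in the submitters' processing notes are Seurat, DESeq2, featureCounts, STAR and fastp, with builds GRCh38 and hg38. What each did, its version, the annotation release and any use of strand: not given in the sources used here. A symbol was matched to 20462 identifiers, and 14 had none.

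Groups were compared in R 4.3.3 with edgeR 4.0.16 (filterByExpr, TMM, quasi-likelihood test, no covariate), with Benjamini-Hochberg adjustment over 12576 genes and a threshold of 0.05. Log2 CPM used a prior count of 2. Alternatives were other scalings and filters, DESeq2 1.42.0, limma-voom (limma 3.58.1), a replicate block, a per-library loess offset on transcript GC content and leaving out each library. Chosen after seeing the data were TMM factors from genes that are no members, and the GC offset without shNC replicate 2. GENCODE release 29 (GRCh38) gave gene coordinates, coding sequences and overlaps, and RefSeq gave start sites. Each pair of libraries differed by more than sampling noise (chi-square per gene 3.31 to 53.43).

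The members, lists and tests were chosen with earlier results of these data known. The rule for naming took ECM1; the 5 members of highest level in each subunit; the 5 highest and 5 lowest fold changes; the 5 smallest p; the stalk, 5S, L1, peptidyl transferase and paralogue groups; RPS27A, RPSA and RPS6; MYC, RACK1, FAU and RPL22L1; the 2 highest genes of each list; and the 5 genes most like the members. Others were named after their values were seen, and some genes the rule takes are not reported here. Many members have processed pseudogene copies that share sequence, so their counts carry that uncertainty.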

Additional observations from a re-analysis of the deposited data

How the results depend on the processing

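Over all genes, edgeR called 505 without a count filter, DESeq2 called 692 and, without shNC replicate 2, 2732, and the GC offset without that library called 3400. Of the members, DESeq2 without shNC replicate 2 called 23 and the GC offset without it 34. Members at an unadjusted p under 0.05 numbered 35 with library size only, 39 with the GC offset, 36 by DESeq2 without shNC replicate 2 and 54 with the GC offset without it, where the small subunit median was 0.32. With each library left out in turn, calls ran from 0 to 3037 genes and from 0 to 20 members, and members at an unadjusted p under 0.05 from 0 (without shNC replicate 1) to 41 (without shNC replicate 2). The share of all genes at that threshold is not given for these settings, so these counts cannot show a shift particular to the members. With each library left out, the difference in the members' share of counts ran from 1.15 to 1.9 points. The cause of these shifts was not tested.

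Of 50 genes followed over 18 alternatives, signs turned for RPL28, RPL7A, RPL3, RPS27L, RACK1, EEF1A1 and EEF2, each within 0.09 of 0 with all libraries. With 1 library left out, RPL28 ran from -0.06 to 0.05, RPL7A from -0.02 to 0.06, RPL3 from -0.01 to 0.08, RPS27L from -0.05 to 0.27, RACK1 from -0.07 to 0.10, EEF1A1 from -0.01 to 0.06 and EEF2 from -0.11 to 0.01. RPL28 was 0.01 with library size only and 0.19 with the GC offset, where EEF2 was 0.15. With that offset and without shNC replicate 2, RPL28 was 0.24, EEF2 0.18 and RPS27L -0.01. DESeq2 without shNC replicate 2 gave -0.02 for RPL7A.

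Replicate numbers did not pair the libraries: same-numbered deviations correlated at -0.07, -0.05 and -0.18. With the replicate block 0 members were called, 28 had an unadjusted p under 0.05 (share over all genes not given here) and the median was 0.19. Depth limits the values of RPS10, RPL36A and RPL17, which rest on 19 to 366 counts a library.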
